A study of Homo sapiens with 18 samples.

Results

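The clustered protocadherins are cell-surface adhesion proteins of the cadherin superfamily, encoded by the alpha, beta and gamma gene arrays on chromosome 5. Members were all genes whose symbol begins with PCDHA, PCDHB or PCDHG followed by a letter or digit, with pseudogenes left out. This gave 53 of the 60252 genes counted: 15 alpha genes, 16 beta genes and 22 gamma genes. Their RNA was measured with stranded mRNA libraries from MCF-10A, a human breast epithelial line that is immortal but forms no tumours, after 8 days in Matrigel, a basement membrane gel in which the cells build spherical structures. All cells stably carried a retroviral construct: SRSF2-OE, SRSF4-OE, SRSF6-OE, SRSF9-OE and TRA2B-OE cells overexpressed (OE) the splicing factor named, from its coding sequence, and Control cells carried the empty PWZL vector. The labels do not say whether a group was a clone or a pool, nor whether its replicates were grown separately. The p-values therefore reflect only how these libraries varied, and that variation may be technical.

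The 18 samples were 14 libraries: 3 each of SRSF2-OE and SRSF9-OE, and 2 each of SRSF4-OE, SRSF6-OE, TRA2B-OE and Control, because replicates 1 and 2 of the last 4 groups were lanes of a single library and were summed ("replicate 1-2"). Those 4 summed libraries carry library IDs in the labels and the other 10 carry numbers, a difference called label set here. Libraries held 42959069 to 121601376 counts. The summed level of 11 basal mammary markers was 18570 to 52283 CPM (counts scaled to a common library size, TMM-adjusted), against 241 to 417 CPM for 8 luminal, 160 to 550 CPM for 8 fibroblast and 2.95 to 23.3 CPM for 10 neuronal markers. The fibroblast sum came mostly from COL1A1 (44.0 to 278 CPM) and DCN (6.30 to 413 CPM), the others being at most 2.68 CPM each. Among neuronal markers only MAP2 exceeded 1.65 CPM in any library. The luminal sum came mostly from KRT8 (87.2 to 176 CPM) and KRT18 (92.6 to 272 CPM). GATA3 was at 9.41 to 29.2 CPM and the other luminal markers at most 2.54 CPM each. EPCAM was the lowest basal marker, at 0.540 to 11.4 CPM. The introduced factor was above every library of other groups in 8 of 12 overexpression libraries. SRSF2 in SRSF2-OE replicate 1 was 214 CPM and TRA2B in TRA2B-OE replicate 3 was 147 CPM, both within the range of the other groups. SRSF6 was 417 CPM in the library labelled SRSF6-OE replicate 1-2 and 283 CPM in the library labelled SRSF6-OE replicate 3, against 400 and 239 CPM in the Control libraries of the same label set, and it reached 448 CPM in an SRSF4-OE library. Directions given for SRSF6-OE therefore rest on labels that total SRSF6 counts do not set apart.

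In the alpha and gamma arrays each gene has its own large first exon, which encodes the extracellular cadherin repeats and the transmembrane segment, and this is spliced to constant exons shared by the whole array. Beta genes have no shared constant exons. Neurons use a varied subset of the promoters, so that each cell displays its own set of isoforms, while the C-type genes at the end of the alpha and gamma arrays are expressed more evenly. Promoter use is governed by DNA methylation and by looping through CTCF and cohesin, and most variable promoters hold a conserved element with the core letters CGCT.

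Promoter sequences of genes that the results turn on are shown because each gene in these arrays is transcribed from its own promoter. Each stretch runs 5′ to 3′ from 95 bases before the RefSeq start to 5 bases into the gene, on the plus strand of GRCh38.p14, and capitals mark CGCT on that strand. The first 4 belong to variable gamma genes whose levels or rank differed between libraries, the fifth to the most abundant member, the sixth to the most abundant beta gene and the last to an alpha gene listed at 0.
PCDHGA11 (chr5:141420956-141421055): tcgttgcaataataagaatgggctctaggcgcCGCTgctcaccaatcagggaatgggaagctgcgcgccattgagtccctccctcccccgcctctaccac
PCDHGB7 (chr5:141417582-141417681): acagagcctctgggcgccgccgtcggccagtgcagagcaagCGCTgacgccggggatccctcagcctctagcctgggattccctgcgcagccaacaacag
PCDHGA7 (chr5:141382647-141382746): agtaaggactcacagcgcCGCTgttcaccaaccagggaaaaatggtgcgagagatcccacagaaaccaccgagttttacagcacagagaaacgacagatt
PCDHGA10 (chr5:141412892-141412991): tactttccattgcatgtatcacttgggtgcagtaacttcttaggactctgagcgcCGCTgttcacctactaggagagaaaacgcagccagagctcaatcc
PCDHGC3 (chr5:141475871-141475970): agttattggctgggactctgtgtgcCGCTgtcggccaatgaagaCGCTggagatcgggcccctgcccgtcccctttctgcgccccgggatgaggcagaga
PCDHB16 (chr5:141182292-141182391): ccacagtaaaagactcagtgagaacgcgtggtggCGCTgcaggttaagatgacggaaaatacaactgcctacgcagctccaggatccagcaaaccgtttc
PCDHA2 (chr5:140794757-140794856): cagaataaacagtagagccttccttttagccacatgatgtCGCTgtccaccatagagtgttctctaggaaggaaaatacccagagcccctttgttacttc

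RefSeq promoters of 250 bases before to 50 after the start were matched to 47 of the 53 members. Over this whole stretch 46 of 47 members (97.9%) held CGCT, against 54.3% of all 35116 promoters on the gene strand and 70.0% on either strand. The narrower window used next was not named in advance, so its share only describes these sequences. CGCT lay between 36 and 85 bases before the start in 39 of 47 members (83.0%), against 15.2% of all 35116 promoters on the gene strand and 27.1% on either strand. It was present there in 11 of 13 alpha, 10 of 14 beta and 18 of 20 gamma promoters. Between 36 and 85 bases before the start, 22 of 26 members with a count and 17 of 21 members at 0 held CGCT. The members at 0 are alpha and beta genes, where absence of RNA cannot be told from reads not counted, as described below. These counts therefore cannot show whether CGCT goes with expression. A CTCF core motif, searched on both strands, was found in 1 of 47 members (2.13%) and in 1.47% of all promoters. A match of letters is a description of the window, not evidence that a factor binds it.

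Counts from the protocadherin arrays came almost wholly from the gamma genes. All 22 gamma genes had counts, 39130 in total over the 14 libraries, while 6 of 16 beta genes had 617 counts and all 15 alpha genes were listed at 0 in every library. Thus 25 of the 53 members (47.2%) were at 0 throughout, against 12.3% of 19636 protein-coding genes, and 21 members had a count in every library. A count of 0 allows up to 3 counts, which was 0.0229 to 0.0719 CPM depending on the library, and this limit covers counting error only.

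The zeros lay together on the chromosome. From PCDHA1, 17 consecutive protein-coding genes, up to PCDHB2, had at most 3 counts each, and 43 of the 52 genes of any type between PCDHA1 and PCDHB15 were at 0 (82.7%). The genes on either side were well counted: ZMAT2, an RNA-splicing gene upstream of the alpha array, had 76198 counts, TAF7, a subunit of the general transcription factor TFIID between the beta and gamma arrays, had 80574 counts, and DIAPH1, a formin downstream of the gamma array, had 325647 counts. Zeros were also listed for genes that dividing cells use in general. In the major histocompatibility region of chromosome 6, from GABBR1 to KIFC1, 102 of 155 protein-coding genes were at 0 (65.8%), against 93 of 877 (10.6%) on the rest of that chromosome. Among them TUBB, a beta-tubulin, had 0 counts, and CSNK2B, the regulatory subunit of casein kinase 2, and DDX39B, an RNA helicase used in splicing and mRNA export, had 1 count each; these were chosen after their values were seen. SMC1A, a cohesin subunit needed for cell division, had 97 counts in all. For alpha genes and most beta genes, absence of RNA and reads that were not counted at the locus therefore cannot be told apart, and beta levels may be incomplete.

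**Figure D1:**
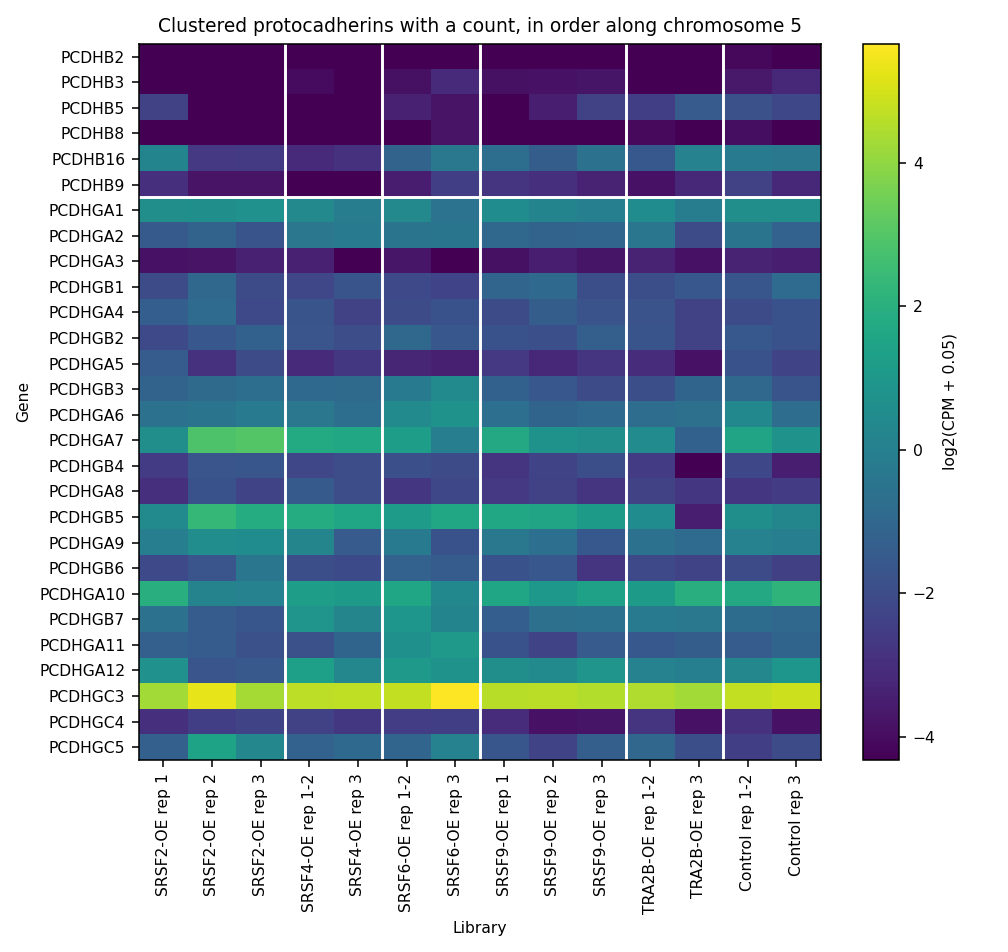
Levels of the 28 members with a count (rows, in chromosomal order) in the 14 libraries (columns), as log2(CPM + 0.05), with white lines between groups and between the beta and gamma arrays. PCDHGC3 is the brightest row in every library, and beta rows are near the bottom of the scale except PCDHB16.

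Exon sharing limits what a gamma count means. In GENCODE 29, 27.6% to 64.4% of the exon bases of a gamma gene and 21.3% to 56.6% of those of an alpha gene were shared with another gene, against 0% to 9.43% for beta genes. The treatment of reads in shared exons by the authors' counting is unknown here. The lowest gamma gene had 0 to 6 counts per library while the array had 1472 to 5566, so reads in shared exons were not added to every gene. Whether they were given to a single gene, such as PCDHGC3, was not tested.

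The gamma array was led by PCDHGC3, a C-type isoform that binds the Wnt pathway scaffold Axin1. Gamma genes summed to 29.1 to 67.4 CPM per library (median 41.3), of which the C-type genes gave 19.5 to 51.5, the A genes 7.82 to 14.03 and the B genes 1.77 to 6.96 CPM; beta genes summed to 0.0790 to 1.40 CPM. PCDHGC3 averaged 26.8 CPM and took 48.4% to 74.7% of gamma counts (Wilson 95% intervals 46.1% to 50.7% and 73.1% to 76.2% at the ends). Per kilobase of own exon its mean level was 8.24 CPM, followed by 0.900 for PCDHGB5, 0.849 for PCDHGA7, 0.565 for PCDHGA10 and 0.515 for PCDHGA12, whose gene is a known target of methylation in lung cancer.

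PCDHGC3 was at 19.3, 39.2 and 19.9 CPM in SRSF2-OE, 25.3 and 25.6 CPM in SRSF4-OE, 26.4 and 50.3 CPM in SRSF6-OE, 23.7, 24.9 and 22.4 CPM in SRSF9-OE and 22.3 and 19.2 CPM in TRA2B-OE, against 26.6 and 29.8 CPM in Control. Replicate 3 of SRSF6-OE and replicate 2 of SRSF2-OE stood above all others, and their own groups' other libraries did not. The edgeR log2 fold change of SRSF6-OE over Control was 0.41 ± 0.35 (SE; adjusted p = 0.507), and without SRSF6-OE replicate 3 it was -0.10 (adjusted p = 0.963). In such bulk samples, fewer cells with the RNA and less RNA per cell cannot be told apart.

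Of the 53 members, 22 (20 gamma genes, PCDHB5 and PCDHB16) had enough counts to be tested, and 6 with counts did not. By edgeR's quasi-likelihood test with Benjamini-Hochberg adjustment over 21326 genes, 0 of 22 members passed an adjusted p of 0.05 in any contrast with Control, in the test of any group difference or between label sets. The background was as sparse: edgeR called 0% of genes in SRSF2-OE, SRSF4-OE and SRSF9-OE, 0.00469% in SRSF6-OE, 0.00938% in TRA2B-OE, 0.0422% for any group difference and 0.0328% between label sets. At an unadjusted p under 0.05, members numbered 2 in SRSF2-OE, 4 in SRSF4-OE, 5 in SRSF6-OE, 0 in SRSF9-OE and 1 in TRA2B-OE, where all genes gave 13.4%, 14.9%, 19.5%, 4.47% and 12% in the same order. For any group difference 7 members were under that p and between label sets 2, against 13.6% of genes in both. DESeq2, the alternative tool, called 1 member in SRSF2-OE (background 2.37% of genes), 2 in SRSF4-OE (2.7%), 2 in SRSF6-OE (5.81%), 0 in SRSF9-OE (0.0703%), 0 in TRA2B-OE (2.12%) 5 for any group difference (7.41%) and 0 between label sets (3.37%). Each is described next, and each passed by DESeq2 but not by edgeR. Some low-count members had no DESeq2 adjusted p and could not be called, among them PCDHB5, PCDHGA5 and PCDHGB4 in SRSF2-OE, SRSF4-OE and SRSF6-OE. The DESeq2 shares are of all 21326 genes.

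PCDHGA11, a variable A-type gene near the end of the gamma array that is known to be methylated in astrocytoma, was high in SRSF6-OE alone. Its level was 0.362, 0.320 and 0.225 CPM in SRSF2-OE, 0.226 and 0.417 CPM in SRSF4-OE, 1.55 and 2.002 CPM in SRSF6-OE, 0.234, 0.159 and 0.312 CPM in SRSF9-OE and 0.284 and 0.335 CPM in TRA2B-OE, against 0.321 and 0.412 CPM in Control. Both libraries labelled SRSF6-OE, in which SRSF6 itself lay within the range of other groups, were above the other 12 libraries, whose highest value was 0.417 CPM. The order of the other 5 group means (Control 0.367, SRSF4-OE 0.321, TRA2B-OE 0.310, SRSF2-OE 0.302 and SRSF9-OE 0.235 CPM) is not one of separate levels, since neighbours in it overlapped; only SRSF9-OE and Control, at its ends, did not overlap. The difference held within each label set: 1.55 against 0.321 CPM among the summed libraries, and 2.002 against 0.412 CPM among the others.

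The edgeR log2 fold change of PCDHGA11 in SRSF6-OE over Control was 2.27 ± 0.39 (SE) with an adjusted p of 0.104, and DESeq2 gave an adjusted p of 0.000148. Across 22 alternative fits it stayed between 2.21 and 2.35, with adjusted p from 0.000148 to 0.671. Neuronal markers, 4 of 10 of which were tested and 1 of which (ELAVL4) was at 0 throughout, summed to 2.95 to 4.07 CPM in SRSF6-OE and 9.85 to 15.1 CPM in Control, and their part in the result was not tested. Over all libraries MAP2 alone ranged from 0.743 to 20.8 CPM, while SYT1, RBFOX3 and TUBB3 were at most 1.65 CPM each. The marker sum therefore does not speak for neuronal genes as a set. In the test of any group difference edgeR gave PCDHGA11 an adjusted p of 0.064 and DESeq2 3.7e-12. The lanes of the summed SRSF6-OE library held 104 and 69 counts, which were 1.68 and 1.57 CPM of the lane totals. Lanes of the other summed libraries held fewer counts and lay further apart. They were at 0.343 and 0.110 CPM in SRSF4-OE (16 and 4 counts) and 0.357 and 0.240 CPM in TRA2B-OE (18 and 10 counts). In Control they were at 0.425 and 0.235 CPM (30 and 12 counts).

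PCDHGB7, the B-type gene just upstream of PCDHGA11 and one often methylated in carcinomas, was high in SRSF4-OE and SRSF6-OE. It had 0.623, 0.320 and 0.270 CPM in SRSF2-OE, 1.77 and 1.13 CPM in SRSF4-OE, 1.84 and 1.08 CPM in SRSF6-OE, 0.342, 0.597 and 0.623 CPM in SRSF9-OE and 0.822 and 0.749 CPM in TRA2B-OE, against 0.520 and 0.471 CPM in Control. Every library of SRSF4-OE and SRSF6-OE was above every library of the other groups. By edgeR the log2 fold change was 1.52 ± 0.45 (adjusted p = 0.244; DESeq2 0.0440) in SRSF4-OE and 1.52 ± 0.45 (adjusted p = 0.169; DESeq2 0.0282) in SRSF6-OE. The SRSF4-OE and SRSF6-OE contrasts share their Control libraries.

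PCDHGC5, the last gene of the gamma array and a C-type isoform studied mainly in the postnatal brain, was lowest in Control. Its level was 0.362, 2.71 and 1.19 CPM in SRSF2-OE, 0.395 and 0.479 CPM in SRSF4-OE, 0.421 and 1.01 CPM in SRSF6-OE, 0.270, 0.159 and 0.3596 CPM in SRSF9-OE and 0.436 and 0.217 CPM in TRA2B-OE, against 0.130 and 0.196 CPM in Control. All libraries of SRSF2-OE, SRSF4-OE, SRSF6-OE and TRA2B-OE were above both Control libraries, and SRSF9-OE overlapped them. In SRSF2-OE the edgeR log2 fold change was 2.99 ± 0.87 (adjusted p = 0.222; DESeq2 0.0257). Without SRSF2-OE replicate 1, where SRSF2 itself was not raised, it was 3.45 ± 0.68 (edgeR adjusted p = 0.0866). Without replicate 2, the highest library, it was 2.11 (edgeR adjusted p = 0.317). In SRSF6-OE it was 2.09 ± 0.85 (edgeR adjusted p = 0.230; DESeq2 0.107), and 1.38 without SRSF6-OE replicate 3 and 2.69 without SRSF6-OE replicate 1-2 (edgeR adjusted p = 0.781 and 0.156).

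**Figure D2:**
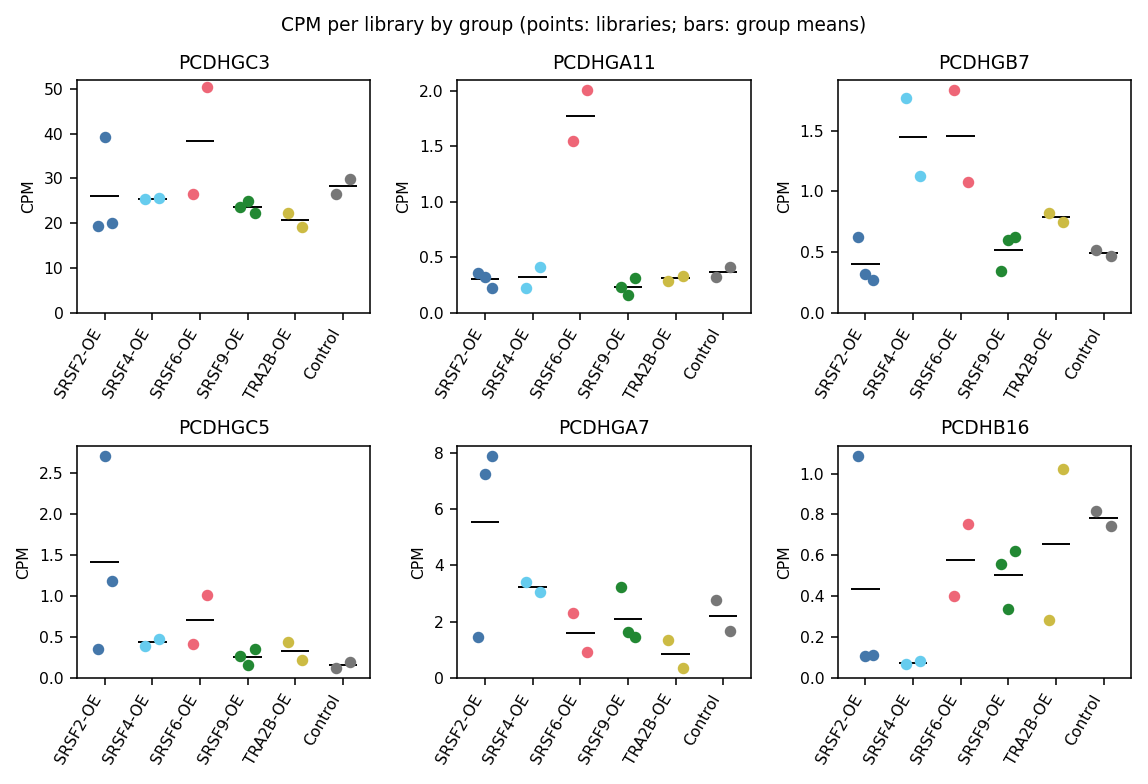
CPM of 6 members in each library (points) with group means (bars), on linear axes that start at 0. PCDHGA11 is at 1.55 and 2.002 CPM in SRSF6-OE and at most 0.417 CPM elsewhere, and PCDHB16 is at 0.0677 and 0.0834 CPM in SRSF4-OE.

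Among beta genes, PCDHB16 and PCDHB5 were the members with the most counts. PCDHB16 was at 1.09, 0.107 and 0.112 CPM in SRSF2-OE, 0.0677 and 0.0834 CPM in SRSF4-OE, 0.403 and 0.753 CPM in SRSF6-OE, 0.557, 0.338 and 0.623 CPM in SRSF9-OE and 0.284 and 1.02 CPM in TRA2B-OE, against 0.818 and 0.746 CPM in Control. Both SRSF4-OE libraries were below every other library, and these hold 10 counts in all. In SRSF4-OE the edgeR log2 fold change was -3.40 ± 1.08 (adjusted p = 0.250; DESeq2 0.0433), and -2.64 without Control replicate 1-2 (edgeR adjusted p = 0.839). Leaving out SRSF2-OE replicate 1 and TRA2B-OE replicate 3 together, edgeR gave -3.36 with an adjusted p of 0.0411.

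In SRSF2-OE, PCDHB16 depended on a single library. Replicate 1 was the highest of all 14 libraries and replicates 2 and 3 were among the lowest. The edgeR log2 fold change was -1.29 ± 0.94 (adjusted p = 0.575) with replicate 1 and -3.27 ± 0.62 (adjusted p = 0.0763) without it. PCDHB5 had 0 counts in both SRSF4-OE libraries, in SRSF2-OE replicates 2 and 3 and in SRSF9-OE replicate 1, against 0.229 and 0.177 CPM in Control (39 counts in all). With 3 counts per library as the floor, its mean was at least 4.21-fold lower in SRSF4-OE than in Control. That bound covers counting error at 0 only, not variation between libraries. The edgeR log2 fold change of PCDHB5 in SRSF4-OE was -6.76 ± 2.30 (adjusted p = 0.263), and DESeq2 gave no adjusted p. The summed beta level averaged 0.0812 ± 0.0031 CPM in SRSF4-OE and 1.14 ± 0.15 CPM in Control (SD, n = 2 each). These sums hold 7 and 4 counts in SRSF4-OE, against 163 and 53 in Control. With so few counts, the small SD in SRSF4-OE does not show how precisely the level was measured. Beta levels may also be incomplete, as stated above.

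PCDHGA7 and PCDHGB5, both variable genes in the middle of the gamma array, were highest in SRSF2-OE replicates 2 and 3. PCDHGA7 had 1.47, 7.23 and 7.87 CPM in SRSF2-OE, 3.41 and 3.04 CPM in SRSF4-OE, 2.31 and 0.926 CPM in SRSF6-OE, 3.24, 1.65 and 1.46 CPM in SRSF9-OE and 1.36 and 0.374 CPM in TRA2B-OE, against 2.76 and 1.69 CPM in Control. Its edgeR log2 fold change in SRSF2-OE was 1.84 ± 0.71 (adjusted p = 0.318; DESeq2 0.112), and 2.29 ± 0.51 (edgeR adjusted p = 0.117) without replicate 1. PCDHGA7 passed DESeq2 in the test of any group difference (adjusted p = 0.00934).

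PCDHGB5 had 1.27, 4.91 and 3.53 CPM in SRSF2-OE, 3.52 and 2.96 CPM in SRSF4-OE, 2.25 and 3.10 CPM in SRSF6-OE, 3.15, 2.79 and 2.13 CPM in SRSF9-OE and 1.38 and 0.0394 CPM in TRA2B-OE, against 1.499 and 1.14 CPM in Control. TRA2B-OE replicate 3 held almost none of it, while the other 13 libraries were at 1.14 CPM or above. In TRA2B-OE the edgeR log2 fold change was -1.14 ± 0.95 (adjusted p = 0.677) and 0.03 ± 0.67 (adjusted p = 0.991) without replicate 3. All libraries of SRSF4-OE, SRSF6-OE and SRSF9-OE were above both Control libraries.

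PCDHGA10 and PCDHGA12, variable genes further along the array, were low in the SRSF2-OE libraries where PCDHGA7 was high. PCDHGA10 had 3.76, 1.05 and 1.03 CPM in SRSF2-OE, 2.28 and 2.13 CPM in SRSF4-OE, 2.83 and 1.21 CPM in SRSF6-OE, 2.91, 1.97 and 2.54 CPM in SRSF9-OE and 2.14 and 3.72 CPM in TRA2B-OE, against 3.20 and 4.49 CPM in Control. PCDHGA12 had 1.59, 0.256 and 0.292 CPM in SRSF2-OE, 2.40 and 1.17 CPM in SRSF4-OE, 1.997 and 1.68 CPM in SRSF6-OE, 1.47, 1.33 and 1.80 CPM in SRSF9-OE and 1.01 and 0.946 CPM in TRA2B-OE, against 1.19 and 1.86 CPM in Control. SRSF2-OE replicates 2 and 3 were the lowest for PCDHGA12, and replicate 1 lay within the range of the other groups. The edgeR log2 fold change of PCDHGA10 in SRSF2-OE was -0.98 ± 0.61 (adjusted p = 0.504), and -1.89 ± 0.47 (adjusted p = 0.166) without replicate 1. For PCDHGA12 the edgeR values were -1.01 ± 0.70 (adjusted p = 0.552) and -2.39 ± 0.44 (adjusted p = 0.0707). Without Control replicate 3 they were -0.55 for PCDHGA10 and -0.26 for PCDHGA12 (edgeR adjusted p = 0.889 and 0.963).

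PCDHGA1, the first gene of the gamma array, had 1.47, 1.52 and 1.60 CPM in SRSF2-OE, 1.24 and 0.855 CPM in SRSF4-OE, 1.24 and 0.646 CPM in SRSF6-OE, 1.38, 1.07 and 0.935 CPM in SRSF9-OE and 1.39 and 0.867 CPM in TRA2B-OE, against 1.46 and 1.47 CPM in Control. Apart from SRSF2-OE replicates 2 and 3, the overexpression libraries were at or below the higher Control library. PCDHGA9 had 0.904, 1.45 and 1.39 CPM in SRSF2-OE, 1.12 and 0.313 CPM in SRSF4-OE, 0.842 and 0.237 CPM in SRSF6-OE, 0.737, 0.577 and 0.288 CPM in SRSF9-OE and 0.619 and 0.512 CPM in TRA2B-OE, against 1.01 and 0.922 CPM in Control. Every library of SRSF6-OE, SRSF9-OE and TRA2B-OE was below both Control libraries for PCDHGA9, and SRSF2-OE and SRSF4-OE overlapped Control.

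PCDHGA6 had 0.603, 0.661 and 0.787 CPM in SRSF2-OE, 0.733 and 0.563 CPM in SRSF4-OE, 1.30 and 1.70 CPM in SRSF6-OE, 0.575, 0.418 and 0.479 CPM in SRSF9-OE and 0.548 and 0.591 CPM in TRA2B-OE, against 1.22 and 0.549 CPM in Control. Both SRSF6-OE libraries were above all others, Control replicate 1-2 being the nearest. Its edgeR log2 fold change in SRSF6-OE was 0.79 ± 0.39 (adjusted p = 0.285), with 1.48 without Control replicate 1-2 and 0.27 without Control replicate 3 (adjusted p = 0.466 and 0.778). PCDHGB3, which lies just upstream of PCDHGA6 and was singled out after its values were seen, was at 0.824 and 1.27 CPM in SRSF6-OE, against 0.459 and 0.255 CPM in Control, above every other library (0.562 CPM at most). Its edgeR log2 fold change there was 1.46 ± 0.47 (adjusted p = 0.181; DESeq2 0.0667), with 2.28 without Control replicate 1-2 and 0.89 without Control replicate 3 (adjusted p = 0.466 and 0.457). DESeq2 called it in the test of any group difference (adjusted p = 0.0273).

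**Figure D3:**
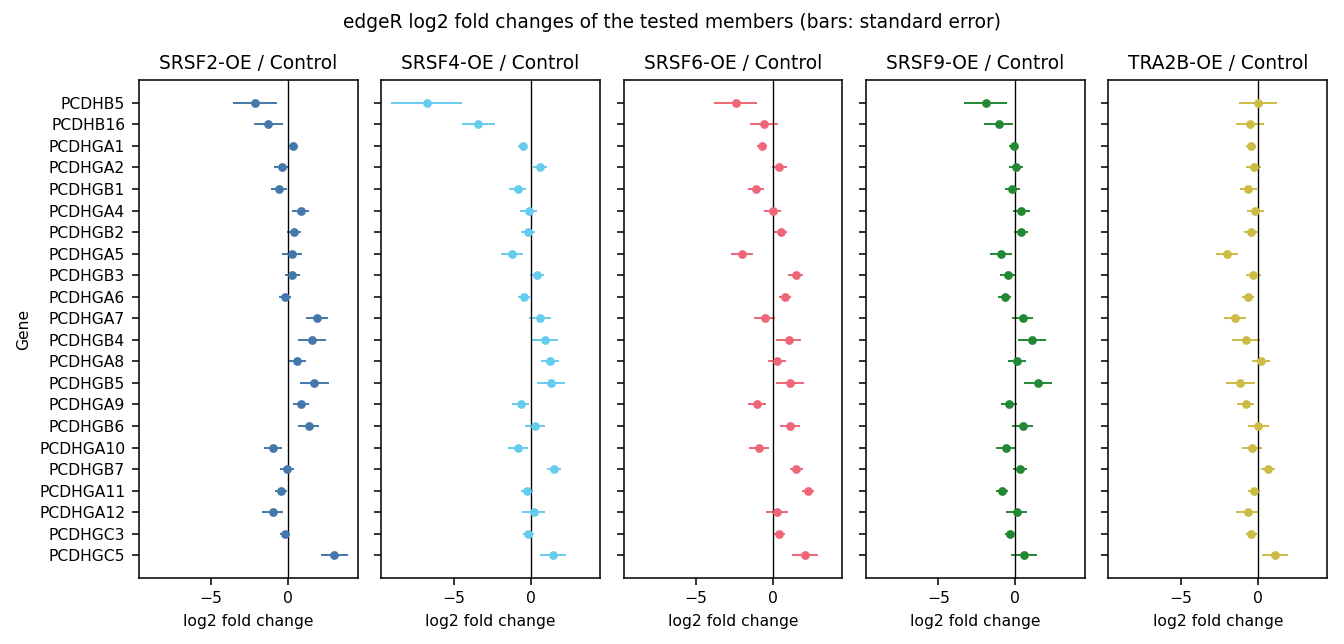
edgeR log2 fold change over Control (x axis) with its standard error (bars) for the 22 tested members (rows, in chromosomal order) in the 5 overexpression groups (panels). PCDHGA11 is at 2.27 in SRSF6-OE with a short bar, and the widest bars belong to PCDHB5 and PCDHB16.

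Counts of members whose libraries did not overlap Control were read against the share of all 21326 genes. In SRSF2-OE, 1 of 22 members was higher in every library (PCDHGC5; background 16.7% of genes) and 1 was lower (PCDHB5; 17.5%). In SRSF4-OE, 7 were higher (25.3%) and 7 lower (27.2%). In SRSF6-OE, 9 were higher (22.8%), namely PCDHGA2, PCDHGA6, PCDHGA11, PCDHGB3, PCDHGB4, PCDHGB5, PCDHGB6, PCDHGB7 and PCDHGC5, and 6 were lower (24.4%). In SRSF9-OE, 1 was higher (16.5%) and 8 lower (17.6%), while in TRA2B-OE 2 were higher (18.3%) and 6 lower (18.2%). Without SRSF2-OE replicate 1 the counts in SRSF2-OE were 9 higher (21.9%) and 6 lower (22.8%), and without TRA2B-OE replicate 3 those in TRA2B-OE were 5 higher (35.1%) and 13 lower (34.9%).

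The median log2 fold change of the 22 tested members was 0.27 in SRSF2-OE, -0.13 in SRSF4-OE, 0.34 in SRSF6-OE, -0.05 in SRSF9-OE and -0.42 in TRA2B-OE. Over all genes tested it was 0.04, -0.04, -0.03, 0.00 and -0.00 in the same order. Single libraries moved these medians. In SRSF6-OE the median was -0.04 without SRSF6-OE replicate 3 and 0.59 without SRSF6-OE replicate 1-2, in SRSF4-OE it was 0.02 without SRSF4-OE replicate 3, and in SRSF9-OE it was 0.33 without Control replicate 3. In SRSF2-OE it was 0.15 without SRSF2-OE replicate 1 and 0.13 without Control replicate 3. In TRA2B-OE it kept its sign, from -0.43 without TRA2B-OE replicate 1-2 to -0.26 without Control replicate 1-2. There 17 of the 22 members had a log2 fold change below 0 and 5 above, and without Control replicate 1-2 these counts were 13 and 9. Of all genes, 49.9% were above 0 in TRA2B-OE.

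The makeup of the gamma array outside PCDHGC3 differed between libraries of the same group. PCDHGA10 was the leading gene in SRSF2-OE replicate 1 (25.7% of these counts), SRSF6-OE replicate 1-2 (14.3%), SRSF9-OE replicate 3 (19.7%), both TRA2B-OE libraries (17.4% and 37.9%) and both Control libraries (20.0% and 29.3%). PCDHGA7 led in SRSF2-OE replicates 2 and 3 (30.7% and 37.0%), where PCDHGA10 gave 4.44% and 4.86%, and in SRSF4-OE replicate 3 (19.3%) and SRSF9-OE replicate 1 (19.4%). PCDHGB5 led in SRSF4-OE replicate 1-2 (17.7%), SRSF9-OE replicate 2 (21.2%) and SRSF6-OE replicate 3 (18.2%), where PCDHGA11 was next (11.7%).

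The overlap of this makeup (the summed smaller share of each gene) was 56.8% to 89.0% between libraries of a group (median 82.9%) and 40.0% to 90.8% between groups (median 73.1%). In 8 of 14 libraries the closest library was of the same group. The shares behind these overlaps rest on 499 (TRA2B-OE replicate 3) to 2213 (SRSF6-OE replicate 1-2) counts per library. SRSF2-OE replicate 1 was closest to Control replicate 3 (90.8%), and TRA2B-OE replicate 3 was also closest to Control replicate 3 (79.2%). In these SRSF2-OE and TRA2B-OE libraries, and in both SRSF6-OE libraries, the introduced factor lay within the range of other groups. TRA2B-OE replicate 1-2, where TRA2B was raised, overlapped Control replicates 1-2 and 3 by 84.7% and 80.9%. TRA2B-OE replicate 3 overlapped them by 69.3% and 79.2%. SRSF2-OE replicates 2 and 3, where SRSF2 was raised, overlapped Control replicate 1-2 by 62.7% and 65.4%. Their overlaps with Control replicate 3 were 53.7% and 54.7%. Whether the level of the introduced factor bears on likeness to Control was not tested. SRSF6-OE replicate 1-2 was closest to TRA2B-OE replicate 1-2 (84.0%) and SRSF6-OE replicate 3 to SRSF6-OE replicate 1-2 (77.1%). The part of the factors' levels in the group differences above was not tested beyond leaving out SRSF2-OE replicate 1 and TRA2B-OE replicate 3.

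**Figure D4:**
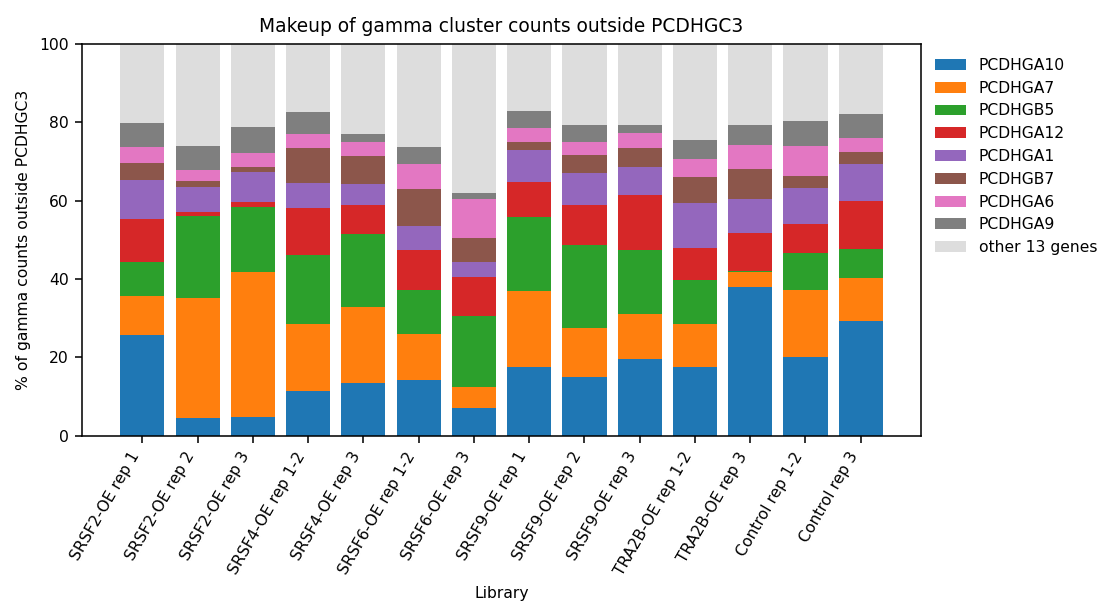
Share of gamma counts outside PCDHGC3 (y axis, percent) taken by the 8 genes with the highest mean share and by the other 13 genes together, for each library (bars). PCDHGA7 takes 30.7% and 37.0% in SRSF2-OE replicates 2 and 3, while PCDHGA10 takes 25.7% in SRSF2-OE replicate 1 and 20.0% and 29.3% in Control.

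Among 24 regulators of the clusters, such as CTCF, cohesin and its loaders, repressive chromatin factors and DNA methylation enzymes, 22 were tested, and edgeR called 0 in each contrast. At an unadjusted p under 0.05 were 8, 6, 5, 1 and 6 in SRSF2-OE, SRSF4-OE, SRSF6-OE, SRSF9-OE and TRA2B-OE (13.4%, 14.9%, 19.5%, 4.47% and 12% of all genes). The 2 regulators not tested, SMC1A and the histone methyltransferase EHMT2, had 97 counts and 1 count in all. DESeq2 called 1 higher and 1 lower in SRSF2-OE (2.37% of all genes), 2 higher in SRSF4-OE (2.7%), 3 higher in SRSF6-OE (5.81%), 0 in SRSF9-OE (0.0703%) and 2 higher in TRA2B-OE (2.12%). For any group difference DESeq2 called 5 regulators (7.41% of all genes), the 4 described next and the cohesin subunit RAD21 (adjusted p = 0.0254, edgeR 0.329). In that test edgeR called 0, with 6 at an unadjusted p under 0.05 (13.6%). DNMT1, the maintenance DNA methyltransferase, averaged 71.6 ± 15.6 CPM in SRSF2-OE (n = 3), 75.7 ± 16.6 in SRSF4-OE, 92.7 ± 5.6 in SRSF6-OE and 92.9 ± 2.0 in TRA2B-OE, against 37.4 ± 9.6 CPM in Control (SD, n = 2 where not stated). DESeq2 adjusted p-values for DNMT1 were 0.0292, 0.00409, 2.5e-05 and 3.0e-05 in these 4 groups, and edgeR's were 0.184, 0.212, 0.0906 and 0.0883. In SRSF9-OE, where neither tool called it, DNMT1 averaged 59.8 ± 2.8 CPM (n = 3), also above the Control mean. All contrasts share the same 2 Control libraries.

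UHRF1, which brings DNMT1 to hemimethylated DNA, averaged 26.1 ± 9.6 CPM in SRSF4-OE, 20.6 ± 3.9 in SRSF6-OE and 21.6 ± 5.2 in TRA2B-OE, against 5.92 ± 5.28 CPM in Control, with DESeq2 adjusted p-values of 0.00463, 0.00890 and 0.0112 (edgeR 0.224, 0.164 and 0.241). Its means in SRSF2-OE and SRSF9-OE, 17.3 ± 3.1 and 12.8 ± 3.0 CPM, were also above the Control mean. SMCHD1, a chromatin protein that represses clustered protocadherins in mouse, averaged 48.1 ± 2.1 CPM in SRSF2-OE, against 75.5 ± 11.3 CPM in Control (DESeq2 adjusted p = 0.0174, edgeR 0.180). In SRSF4-OE, SRSF6-OE, SRSF9-OE and TRA2B-OE it averaged 62.6, 67.6, 70.2 and 60.8 CPM. TRIM28, the KAP1 co-repressor, averaged 299 ± 46 CPM in SRSF6-OE, against 175 ± 33 CPM in Control (DESeq2 adjusted p = 0.00309, edgeR 0.136). It was not particular to SRSF6-OE: SRSF2-OE, SRSF4-OE, SRSF9-OE and TRA2B-OE averaged 270, 228, 239 and 238 CPM, all above the Control mean. Whether these levels bear on protocadherin levels was not tested.

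Of 15 proteins that cleave or bind protocadherins, 13 were tested, and 0 were called by edgeR or DESeq2 in any contrast with Control. In each contrast 0 or 1 was at an edgeR unadjusted p under 0.05, against 4.47% to 19.5% of all genes. ROR2, a receptor for Wnt5a, was called by DESeq2 between label sets, as were 3.37% of all genes (adjusted p = 0.00522, edgeR 0.126). It ranged from 0.0213 to 2.19 CPM over the libraries. WNK1, a kinase that controls ion transport, had a median of 284 CPM and PTK2, the focal adhesion kinase that gamma and alpha tails inhibit, had 211 CPM. Of 11 non-clustered protocadherins 6 were tested and 0 were called by edgeR or DESeq2 in a contrast with Control. From 0 to 3 were at an edgeR unadjusted p under 0.05, against 4.47% to 19.5% of all genes. For any group difference DESeq2 called 3 of them (7.41% of all genes), and edgeR called 0 with 3 at an unadjusted p under 0.05 (13.6%). PCDH7 averaged 46.1 ± 18.4 CPM in SRSF2-OE, 48.3 ± 2.1 in SRSF4-OE, 23.8 ± 11.4 in SRSF6-OE, 20.6 ± 6.8 in SRSF9-OE and 24.5 ± 8.7 in TRA2B-OE, against 47.1 ± 3.2 CPM in Control (SD, n = 3 in SRSF2-OE and SRSF9-OE and 2 elsewhere; DESeq2 adjusted p = 0.0135, edgeR 0.301). PCDH9 ranged from 2.49 to 39.3 CPM (DESeq2 adjusted p = 0.0248, edgeR 0.349) and PCDH1 from 2.17 to 63.0 CPM (DESeq2 adjusted p = 0.0340, edgeR 0.377). Between label sets DESeq2 called PCDH18, which ranged from 0.0431 to 5.05 CPM (adjusted p = 0.00536; edgeR 0.177).

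Of 17 genes beside or between the arrays 16 were tested. edgeR called 0, with 7, 4, 4, 1 and 2 at an unadjusted p under 0.05 in SRSF2-OE, SRSF4-OE, SRSF6-OE, SRSF9-OE and TRA2B-OE (13.4%, 14.9%, 19.5%, 4.47% and 12% of all genes). DESeq2 called CD14 in 4 of 5 contrasts (2.12% to 5.81% of all genes) and for any group difference (7.41%), there with an adjusted p of 0.00436 (edgeR 0.285). CD14, a lipopolysaccharide co-receptor, averaged 4.06 ± 0.80 CPM in SRSF2-OE, 3.41 ± 0.78 in SRSF4-OE, 3.84 ± 0.38 in SRSF6-OE and 4.87 ± 0.91 in TRA2B-OE, against 1.16 ± 0.22 CPM in Control. Their DESeq2 adjusted p-values were 0.00309, 0.0113, 0.00260 and 0.000244, and edgeR's were 0.177, 0.224, 0.141 and 0.127. In SRSF9-OE, where neither tool called it, CD14 averaged 3.84 ± 1.46 CPM, also above the Control mean.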

How the data were processed

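The deposited table holds whole-number counts per gene for 18 samples, not normalised. Trimmomatic 0.36, STAR 2.5.1b, Subread, featureCounts and GRCh37 appear in the submitters' processing notes with no order of use. How multi-mapping reads, shared exons and strand were handled is not stated in those sources. Gene names came from GENCODE 29 on another build, by gene ID (55910 of 60252). Lanes of a library were summed, giving 14 libraries.

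CPM used TMM-scaled library sizes. Genes were filtered with filterByExpr (minimum count 10), leaving 21326, and tested with edgeR 4.0.16 (R 4.3.3) quasi-likelihood fits of all 6 groups with label set as a term (7 residual degrees of freedom, biological coefficient of variation 0.318). Calls needed a Benjamini-Hochberg adjusted p under 0.05. Because of the label set term, log2 fold changes need not equal ratios of mean CPM. Alternatives were DESeq2 1.42.0, limma 3.58.1 (voom), RLE scaling, no filter, no label set, a replicate block, 18 separate samples, 2 groups alone and left-out libraries. Scripts were tested on simulated data.

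Values in every library are given for PCDHGA11, the 10 members with the highest mean CPM and members called by either tool in a contrast with Control. PCDHGB3 was added after its values were seen. Of the lists, genes called by either tool in any test are named (4 at most by smallest p, and RAD21 besides), otherwise the 2 with the highest level; WNK1 and PTK2 are given besides ROR2. The members and lists were chosen with earlier results of these data known. Promoters came from RefSeq, GRCh38.p14.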

Additional observations from a re-analysis of the deposited data

Results flagged for a closer look

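Pseudogenes lie outside the members, and 2 of the 6 left out had libraries with more than 3 counts above the level of both Control libraries. PCDHGB8P was at 0.382 CPM (17 counts) in SRSF2-OE replicate 3, against 0.107 and 0.0392 CPM in Control, and TRA2B-OE replicate 3, at 0.118 CPM, was the only other library above Control. PCDHGB9P was at 0.0790 CPM (7 counts) in SRSF4-OE replicate 1-2, against 0.0382 and 0.0589 CPM in Control. It did not stand apart: SRSF9-OE replicate 3 (0.0719 CPM), SRSF2-OE replicates 3 and 2 (0.0675 and 0.0640) and SRSF4-OE replicate 3 (0.0625) were also above Control. None of these pseudogene values was tested. No group had 4 or more libraries, so single libraries standing apart from their group were not screened for.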

How the results depend on the processing

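Under edgeR no member was called; the alternatives that gave other counts follow, each with the share of all its tested genes called in parentheses. DESeq2 called 1 member in SRSF2-OE (2.37%), 2 in SRSF4-OE (2.7%), 2 in SRSF6-OE (5.81%) and 5 for any group difference (7.41%), limma-voom called 1 in SRSF6-OE (PCDHGA11, adjusted p = 0.0495; 0.0891%), and edgeR without a filter on low counts called 1 for any group difference (PCDHGA11; 0.126%). The 18 samples taken as separate replicates, where lanes of a library count as replicates, gave 1 in SRSF2-OE (6.03%), 3 in SRSF4-OE (16.2%), 4 in SRSF6-OE (18.6%), 1 in TRA2B-OE (13.6%) and 7 for any group difference (17.1%). Leaving out SRSF2-OE replicate 1 and TRA2B-OE replicate 3 together gave 1 in SRSF4-OE (PCDHB16; 0.396%) and 1 for any group difference (PCDHGA11; 0.337%), and fitting only SRSF4-OE and Control gave 4 (12.2%). Leaving out each library in turn gave 0 to 1 for any group difference (PCDHGA11 without SRSF2-OE replicate 1; 0.221%) and 0 in each contrast.

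With a replicate block 0 members were called in each of the 5 contrasts and for any group difference. Whether replicate numbers pair the samples was left undecided by correlations of the libraries' deviations. These ran from -0.42 to 0.49 over 31 same-numbered pairs, 16 of them over 0.1, and from -0.59 to 0.52 over 50 other pairs. In groups with a summed library the deviations are mirror images, so the pairs are not independent. Replicate number and label set also coincide in those groups.

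Of 330 refits of 15 log2 fold changes, from which fits of 2 groups alone were left out, 327 kept their direction. The exceptions were PCDHGC3 in SRSF6-OE, -0.0951 to 0.84 when each library was left out (-0.0951 without SRSF6-OE replicate 3), and PCDHGB5 in TRA2B-OE, -4.95 to 0.0266 when each library was left out (0.0266 without TRA2B-OE replicate 3) and 0.0259 without TRA2B-OE replicate 3 and SRSF2-OE replicate 1 together. The cause was not tested. With total counts in place of TMM, a scaling chosen after seeing the data, 3 members in place of 1 were lower than every Control library in SRSF2-OE. Counts without the libraries in doubt, also chosen after seeing the data, stand in the report. Depth limits the beta genes most, since 3 counts were up to 0.0719 CPM.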

Other observations

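Over all 14 libraries PCDHGB8P had 74 counts and PCDHGB9P had 39 counts, each in 12 libraries. PCDHB18P had 5 counts and the other 3 pseudogenes were at 0.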
